A study of Mus musculus with 4 samples.

Results

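The genes described here are 10 mouse enzymes of purine salvage and purine breakdown: Pnp, Pnp2, Hprt, Aprt, Adk, Ada, Gda, Xdh, Ampd2 and Ampd3. They were chosen by symbol, and every non-control probe whose transcript accession maps to one of these symbols was used. That gave 14 probes for 10 genes, of 20832 genes named on the array. All 10 genes had at least 1 tested probe, and 13 of the 14 probes passed the filter on dim signals, for which all 4 arrays had to show a signal well above background in the green channel, the red channel or both. The list was drawn up with earlier results of the knockout against wild-type contrast known. The log2 ratios of its members are therefore given as a description, without a test, and a statement that a member passed the threshold of the genome-wide fit is part of that description.

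The samples were cortical RNA (cerebral cortex) from 3-month-old male C57BL/6N mice, either wild type or Ndrg2-/-. Ndrg2 encodes a member of the N-myc downstream regulated family that astrocytes express in the brain. Each of 4 dual-colour Agilent arrays carried a wild-type sample dyed with Cy3 (green) and an Ndrg2-/- sample dyed with Cy5 (red) of the same replicate number, and no array had the dyes exchanged, so genotype and dye cannot be told apart. The labels give neither the deleted part of Ndrg2 nor how many mice made up a sample, and all spread given here is that between these samples.

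Each ratio is the log2 of the knockout signal divided by the wild-type signal, as labelled, after background correction and normalization within the array, with the SD over arrays after ± and n = 4. Levels are normalized log2 intensities of a channel, and they may be compared between samples for the same probe, not between probes. Across arrays, the median raw green signal was 94 to 122 with a local background of 22 to 26, and the median raw red signal was 283 to 335.5 with a local background of 87 to 96. The only tested probe of Ndrg2 did not show a loss. Its log2 ratios on arrays 1 to 4 were 0.11, 0.37, 0.40 and 0.38 (mean 0.32 ± 0.14, limma adjusted p 0.0173), so the direction of every ratio below rests on the labels alone. All 6 neuron markers and all 6 astrocyte markers passed the filter, with mean wild-type levels of 12.10 to 16.24 and of 9.58 to 16.94.

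Purine salvage returns free bases and nucleosides to the nucleotide pool, which costs a cell far less energy than building purines anew. Purine nucleoside phosphorylase splits inosine and guanosine into hypoxanthine and guanine, Hprt and Aprt rebuild nucleotides from the free bases, and adenosine kinase (Adk) and adenosine deaminase (Ada) compete for adenosine. Guanine deaminase (Gda) and xanthine dehydrogenase (Xdh) carry bases on to xanthine and uric acid, and the AMP deaminases Ampd2 and Ampd3 turn AMP into IMP. In the adult brain, Adk sits mainly in astrocytes and keeps extracellular adenosine low, and loss of HPRT in humans causes Lesch-Nyhan disease.

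Pnp and Pnp2 are adjacent paralogs on chromosome 14, the chromosome of Ndrg2, and Adk lies on the same chromosome. The stretches just upstream of the start sites of Pnp and Adk are printed because these are the chromosome 14 members with an entry among the RefSeq promoters (build GRCm38.p6), and Pnp was the member that passed the fit upward. Each line holds the 150 bases before 1 start site, read 5′ to 3′ on the plus strand, at chr14:50944153-50944302 for Pnp and at chr14:21052424-21052573 and chr14:21076002-21076151 for the start sites of Adk. Capitals mark matches on either strand to CCAAT, the core of the CCAAT box, and to GGGCGG, the core of the GC box, which overlap in 1 place of the Adk lines.

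Pnp: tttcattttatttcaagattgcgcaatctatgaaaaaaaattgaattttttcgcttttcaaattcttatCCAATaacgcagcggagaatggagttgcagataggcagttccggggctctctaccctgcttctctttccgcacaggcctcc

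Adk, start site A: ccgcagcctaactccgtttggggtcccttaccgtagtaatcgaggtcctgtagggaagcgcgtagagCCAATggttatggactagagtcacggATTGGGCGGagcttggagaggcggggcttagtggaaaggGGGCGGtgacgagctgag

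Adk, start site B: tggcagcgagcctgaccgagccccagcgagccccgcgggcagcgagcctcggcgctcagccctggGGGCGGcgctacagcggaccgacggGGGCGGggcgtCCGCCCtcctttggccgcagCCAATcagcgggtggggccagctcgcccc

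The Pnp stretch held 1 match, and each Adk stretch held 4. RefSeq promoter windows (250 bases before the start and 50 after it) matched 8 of the 10 genes, with 12 start sites. CCAAT was in 7 of the 12 windows and in 37.4% of all 32851 promoter windows, and GGGCGG was in 8 of the 12 and in 35.7% of all. TATAAA, the core of the TATA box, was in 0 of the 12 and in 13.6% of all. These are letter matches in windows of one length, not sites shown to be used.

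The phosphorylase genes differed in opposite directions. Pnp was higher and its neighbour Pnp2 was lower in every sample labelled knockout than in the wild-type sample on the same array. Across the ratios of the other 8 members, none passed the threshold of limma's fit. In all, 2 of 10 members passed (adjusted p under 0.05), 1 higher and 1 lower, where 15.0% of 15759 tested genes passed, 9.12% higher and 5.84% lower. Nothing is read from that count, since the members were chosen with this contrast known. The median ratio of the members was -0.05, against 0.01 over all genes tested. A 1.5-fold difference on all 4 arrays was reached by 0 members and by 0.0952% of tested genes in these ratios. For Pnp2, the processed signals given below were past it on all 4 arrays. Such signals also ran negative for a Pnp probe near background, so they give no size for Pnp2.

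**Figure D1:**
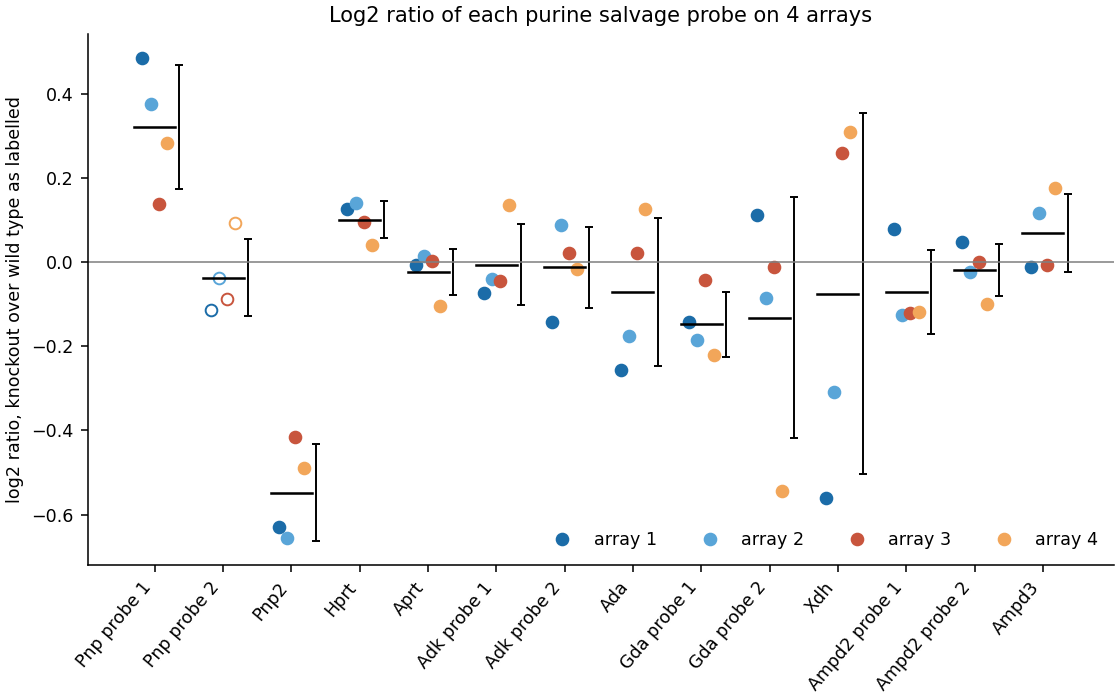
Log2 ratio, knockout over wild type (vertical axis), for each of the 14 probes of the 10 genes, with 1 point per array, a bar at the mean and the SD over 4 arrays beside it; open circles mark the Pnp probe that failed the filter on dim signals. The bright Pnp probe lies above 0 on all 4 arrays, Pnp2 lies at -0.42 or below on all 4, and Xdh is split, with arrays 1 and 2 below 0 and arrays 3 and 4 above it.

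Pnp encodes the main purine nucleoside phosphorylase, and its bright probe (A_66_P138137, accession NM_013632) was well above background in both channels on all arrays. Its raw wild-type signal was 1382, 1492.5, 1290.5 and 1124 on arrays 1 to 4, and its raw knockout signal 5267.5, 4797.5, 3982.5 and 4116 in the brighter red channel. After normalization, the wild-type levels were 11.01, 11.01, 11.16 and 11.23, and the knockout levels were 11.49, 11.38, 11.30 and 11.51. The groups did not overlap: the lowest knockout level, on array 3, lay above the highest wild-type level, on array 4. Such a separation upward was seen in 9.01% of tested genes. The ratios were 0.49, 0.37, 0.14 and 0.28, with a mean of 0.32 ± 0.15, which is a 1.25-fold higher signal. The smallest difference was on array 3. The Pnp ratio stayed past the threshold without replicate 3 or replicate 4, but not without replicate 1 (0.27) or replicate 2 (0.30).

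The other Pnp probe (A_55_P2018841, same accession) could not check this value. It was well above background in 1 of 4 wild-type samples and in 0 of 4 knockout samples, with raw signals of 35 to 41 in green and 100 to 113 in red. It was not tested, and no fold is given for it.

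Pnp2 encodes a close paralog of the phosphorylase, and it had a single, dim probe (A_55_P1976898, accession NM_001123371). The probe was well above background in all 4 wild-type samples and in 0 of 4 knockout samples, so it passed the filter only through the group where it was brighter. The wild-type levels were 6.91, 6.83, 6.77 and 6.83, and the knockout levels were 6.28, 6.17, 6.35 and 6.35. Every wild-type level lay above every knockout level, a separation downward that was seen in 6.23% of tested genes. The ratios were -0.63, -0.66, -0.42 and -0.49, with a mean of -0.55 ± 0.11.

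Because the knockout signal of Pnp2 was not well above background, that mean does not measure the size of the difference. With the offset of 50, the signal was 1.46-fold lower in the samples labelled knockout, from mean levels of 6.84 in wild type and 6.29 in knockout. The ratio was -0.87 with an offset of 16 and -0.21 with an offset of 200, so no least fold is given. The 1.46-fold value comes from channels with different dyes and no dye swap, and it is open to dye bias. The offset of 50 added in the background correction also draws ratios of dim probes toward 0. The scanner software's processed signals, which have no such offset, gave ratios of -2.57, -2.94, -2.43 and -2.24 on arrays 1 to 4. For the dimmer Pnp probe, itself near background, the same signals gave -1.87, -1.65, -1.18 and -0.38. The processed ratios of Pnp2 are therefore not read as its size. A setting that required a signal well above background in both channels did not test Pnp2. Its passing in the other settings is no separate support, since the filter admitted it through the wild-type channel. Probe sequences were not used here, so whether a Pnp probe also binds the transcript of its paralog was not tested.

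**Figure D2:**
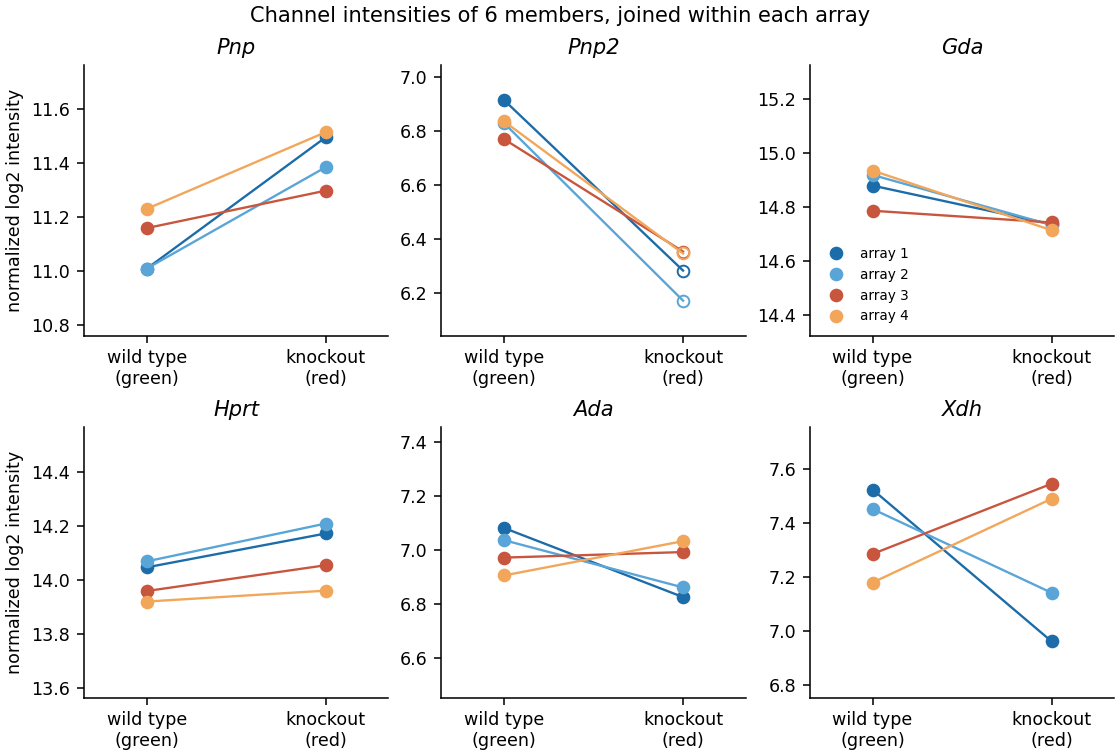
Normalized log2 intensity (vertical axis, each panel spanning 1 log2 unit) of the wild-type and knockout channels for 6 members, with the samples of an array joined by a line; filled circles are well above background and open circles are not. The knockout points of Pnp lie above all wild-type points, those of Pnp2 and Gda lie below them, and the lines of Xdh and Ada cross between arrays 1 and 2 and arrays 3 and 4.

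On chromosome 14, Pnp and Pnp2 lay next to each other in the order of 543 tested genes, with Ndrg2 at position 14 counted from Pnp. The 3 tested genes before Pnp did not pass the threshold on their brightest probes. These were Osgep, a tRNA modification enzyme gene (-0.11 ± 0.04, limma adjusted p 0.0988), the DNA repair endonuclease gene Apex1 (0.05 ± 0.04, adjusted p 0.430) and the phosphatase gene Pip4p1 (-0.07 ± 0.15, adjusted p 0.434); under median centring without loess the first and last of these turned positive, at 0.26 and 0.24. With the mean of all its probes, Osgep did pass (-0.17, limma adjusted p 0.0228). The 3 tested genes after Pnp2 passed in limma on their brightest probes. The ribonuclease family gene Rnase10 rose by 0.18 ± 0.02 (limma adjusted p 0.0250). The angiogenin gene Ang fell by 0.60 (SD 0.07, limma adjusted p 0.000753). The size for Ang depended on the offset, with a ratio of -0.77 at an offset of 16 and -0.31 at 200. The secreted ribonuclease gene Rnase4 rose by 2.29 ± 0.04 (limma adjusted p 8.5e-07). The channel levels of Rnase10 overlapped, and it did not pass without the replicate block (adjusted p 0.474), with processed signals (0.0539) or without replicate 1, 2 or 3 (0.0836, 0.0954 and 0.0957), whereas Ang and Rnase4 passed in each of these. Within 30 positions of Pnp on either side, 31 of 61 tested genes passed (50.8%), beside the 15.0% of all genes. The 31 include Pnp and Pnp2 themselves, which were chosen with this contrast known.

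**Figure D3:**
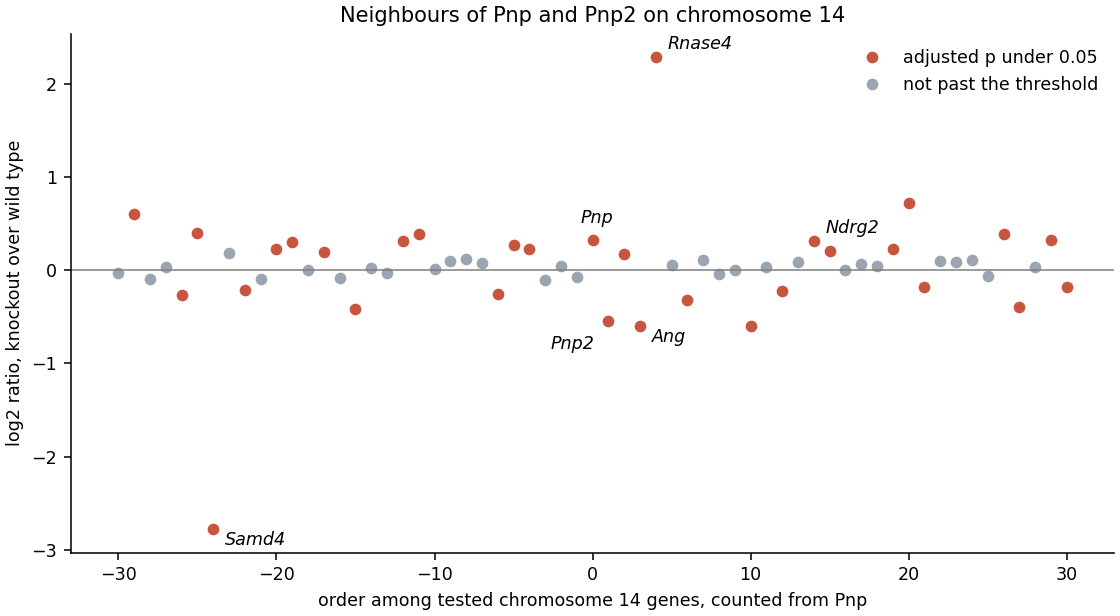
Mean log2 ratio of knockout over wild type (vertical axis) for the 61 tested genes within 30 positions of Pnp in the gene order of chromosome 14 (horizontal axis); red points passed adjusted p 0.05 in limma and grey points did not. Pnp (0.32) and Pnp2 (-0.55) sit beside Ang (-0.60) and Rnase4 (2.29), with Samd4 and Rnase4 far outside the range of the others. The sizes for Pnp2 and Ang depend on the offset.

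Adk, the third member on chromosome 14, stood at position -153 counted from Pnp, and its ratios lay near 0. Its brighter probe (A_51_P130666, NM_134079) had ratios of -0.07, -0.04, -0.05 and 0.14, with a mean of -0.01 ± 0.10 and a 95% interval of -0.12 to 0.10. Its other probe, for transcript NM_001243041, had a mean of -0.01 ± 0.10 (-0.14, 0.09, 0.02 and -0.02 on arrays 1 to 4). Array 4 was the highest for the first transcript and below 0 for the second, and in both probes the groups overlapped. The interval of the second probe was also -0.12 to 0.10, so differences of that size are not excluded for either transcript.

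The enzymes that rebuild nucleotides from bases had small ratios. Hprt, which joins hypoxanthine or guanine to ribose phosphate, was printed as 10 replicate spots on each array. Its mean ratios were 0.13, 0.14, 0.10 and 0.04 on arrays 1 to 4, and the SD over the 10 spots of an array was 0.03 on every array. The SD between arrays, each taken as the mean of its spots, was 0.04 around a mean of 0.10. All 4 ratios were above 0, but the channel levels overlapped, with wild type from 13.92 to 14.07 and knockout from 13.96 to 14.21. Hprt did not pass the threshold, and the 95% interval of its ratio ran from 0.01 to 0.19. The probe was among the brightest of the array, as 5.51% of tested genes were brighter.

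Aprt, which does the same for adenine, had the narrowest spread of the members apart from Hprt. Its ratios were -0.01, 0.01, 0.00 and -0.10, with a mean of -0.02 ± 0.05 and a 95% interval of -0.12 to 0.07. The wild-type levels of 12.25 to 12.34 and the knockout levels of 12.24 to 12.33 covered the same range.

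Gda was the only other member with groups that did not overlap, a separation downward that was seen in 6.23% of tested genes. The enzyme, also known as cypin, turns guanine into xanthine and binds the postsynaptic scaffold protein PSD-95 in neurons. On its bright probe (A_55_P2097478) the wild-type levels were 14.88, 14.92, 14.79 and 14.94 and the knockout levels 14.74, 14.73, 14.74 and 14.72. The knockout levels were all below the wild-type levels and almost equal to each other (SD 0.01), while the wild-type levels varied more (SD 0.07). The ratios were -0.14, -0.19, -0.04 and -0.22, with a mean of -0.15 ± 0.08 and a 95% interval of -0.25 to -0.05, and Gda did not pass the threshold over all genes; under median centring its sign turned (0.37). The dimmer probe of Gda gave -0.13 ± 0.29, with array 4 alone at -0.54 and the other arrays between -0.09 and 0.11.

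Among the brightest probes of the members, those of Xdh and Ada varied most between arrays, and both were negative on arrays 1 and 2 and positive on arrays 3 and 4. Xdh, which oxidizes hypoxanthine and xanthine to uric acid, had wild-type levels of 7.52, 7.45, 7.29 and 7.18 and knockout levels of 6.96, 7.14, 7.55 and 7.49. The knockout sample was lower on arrays 1 and 2 and higher on arrays 3 and 4. The ratios were -0.56, -0.31, 0.26 and 0.31, so the mean of -0.08 ± 0.43 describes none of the arrays. Only 0.654% of tested genes had a wider range of ratios than Xdh, whose range was 0.87 against a median of 0.20.

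Ada had ratios of -0.26, -0.17, 0.02 and 0.13, with a mean of -0.07 ± 0.18 (95% interval -0.23 to 0.08). Its wild-type levels were 7.08, 7.04, 6.97 and 6.91, and its knockout levels 6.83, 6.86, 6.99 and 7.03, in the same order of arrays as for Xdh within each channel, apart from arrays 3 and 4 of the knockout channel. The pattern of Xdh and Ada, negative on arrays 1 and 2 and positive on arrays 3 and 4, was shared by 5.22% of all tested genes. Over all kept probes, the ratios of arrays 1 and 2 correlated at Pearson's r 0.688 and those of arrays 3 and 4 at 0.547 (across probes, which share dyes and slide and are not replicates). Correlations between arrays of different pairs are not given, so these values cannot show a pairing of the arrays. Both probes were dim, with raw wild-type signals of 57 to 105 over a local green background of 20.5 to 24.5. Markers of blood, 2 of which were tested and 0 of which passed, had medians of -0.53, -0.14, -0.10 and 0.35, lowest on array 1 and highest on array 4, while the 5 endothelial markers had medians of 0.04, -0.11, -0.08 and 0.16, with 1 passing upward. The part of either cell type in the values of Xdh and Ada was not tested.

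The AMP deaminases did not pass the threshold. Ampd2 had ratios of 0.08, -0.13, -0.12 and -0.12 on its brighter probe (mean -0.07 ± 0.10), with array 1 apart from 3 nearly equal arrays, and 0.05, -0.02, 0.00 and -0.10 on the other probe (mean -0.02 ± 0.06). Ampd3 had ratios of -0.01, 0.12, -0.01 and 0.18, with a mean of 0.07 ± 0.09 and a 95% interval of -0.04 to 0.18. The groups overlapped for every probe of both genes.

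These values were obtained with each array normalized by loess. Median centring without loess moved the median of all tested genes to 0.28. It then put Adk (0.41), Aprt (0.37), Gda (0.37) and Ampd2 (0.33) above 0 and Ampd3 (-0.06) below it. Ada moved to -0.27 and then passed the threshold, and Xdh was at -0.15, while Pnp (0.69) and Hprt (0.58) stayed higher and Pnp2 (-0.92) lower. The members did not shift by a common amount. The signs of the small ratios of Adk, Aprt, Gda, Ampd2 and Ampd3 thus depend on the scaling.

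**Figure D4:**
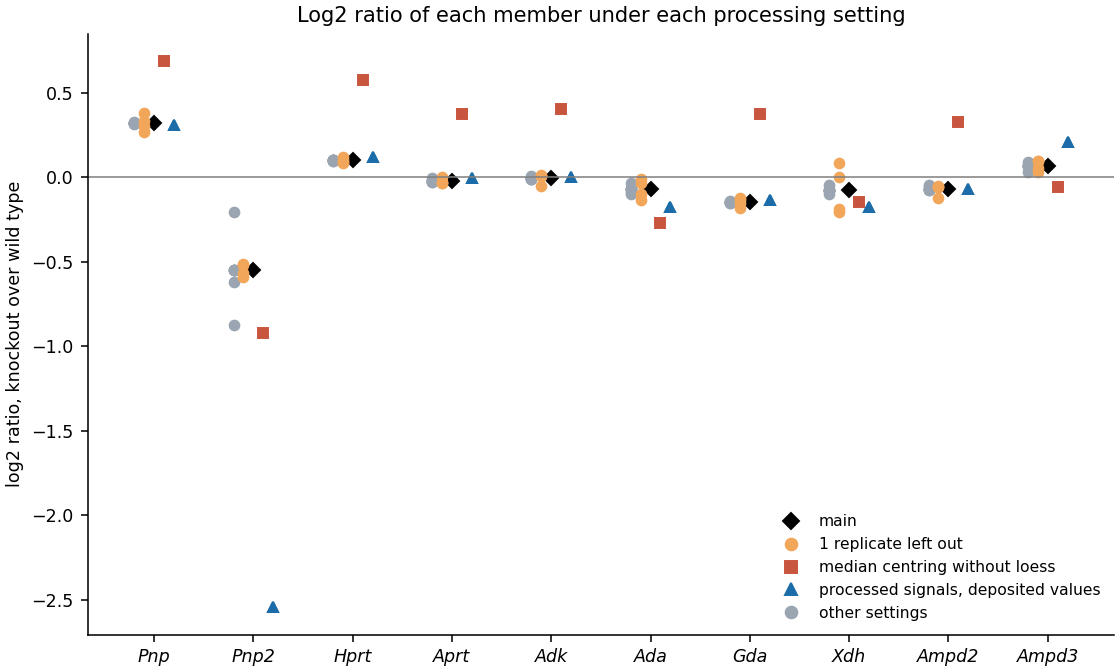
Log2 ratio of knockout over wild type (vertical axis) of each of the 10 genes under the main processing (black diamonds), with 1 replicate left out (orange), under median centring without loess (red squares), with processed signals or deposited values (blue triangles) and under the other settings (grey). Pnp is above 0 and Pnp2 below 0 in every setting that tested them, while the size for Pnp2 runs from -0.21 to -2.54.

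Markers of other cortical cell types were read beside Pnp. All 6 meningeal markers tested passed the threshold upward, with medians of 0.69, 0.39, 0.24 and 0.68 on arrays 1 to 4. These medians and Pnp were both lowest on array 3. On array 4, however, Pnp (0.28) was below its array 2 value (0.37), and the meningeal median was above its own. The summed linear intensity of the meningeal markers ran from 6209 to 12138 in the wild-type samples and from 9010 to 16169 in the knockout samples. The 6 astrocyte markers had medians of 0.29, 0.18, 0.18 and 0.24, and 1 of them passed upward. The 6 microglia markers had a median of 0.04 with 2 passing upward, the 6 neuron markers a median of 0.07 with 2 passing upward, and the 5 oligodendrocyte markers a median of -0.02 with 1 passing upward. The 5 markers of striatum, the neighbouring region in dissection, had medians of -0.02, 0.00, -0.10 and -0.18, with 1 passing downward. The part of these cells in the Pnp and Pnp2 values was not tested, and in bulk tissue fewer cells of a type and less RNA per cell cannot be told apart.

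Genes with the array pattern most like that of the phosphorylases were found by the Euclidean distance between the 4 ratios. The nearest to Pnp were the histone gene H2bc6 (distance 0.06; 0.47, 0.34, 0.18 and 0.28), Gfod1 (0.07; 0.49, 0.41, 0.19 and 0.31) and Umps, which makes the pyrimidine nucleotide UMP (0.09; 0.44, 0.29, 0.14 and 0.30). The nearest to Pnp2 were BC051226 (distance 0.10), the myosin heavy chain gene Myh8 (0.16) and the nuclear export gene Xpo7 (0.24). Of these 6 genes, Xpo7 lies on chromosome 14, and its mean over all its probes had the opposite sign (0.13). The mean over all probes of Umps was 0.19, against 0.29 on its brightest probe. The distances to Pnp2 use ratios with a knockout signal not well above background, and these depend on the offset. The order of neighbours of Pnp2 was found with the offset of 50 alone, and other offsets were not tried for it. With 4 arrays, such a likeness is a description only.

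Few genes of the wider purine and nucleoside pathways passed the threshold. The 7 lists used here are not of purine genes alone. The nucleoside kinases and other phosphorylases include enzymes of pyrimidine nucleosides. Of 66 genes in 7 lists outside the members, 60 were tested and 6 were too dim. In limma 3 of the 60 passed (5.0%), 0 higher and 3 lower, beside 15.0% of all genes. The split by direction varied with the setting. It was 5 higher and 2 lower with an offset of 200, 2 higher and 3 lower with the mean of all probes, and 0 higher and 4 lower with processed signals. An unadjusted p under 0.05 was reached by 20 of the 60 and by 34.8% of all tested genes. The median ratio of the 60 genes was 0.01, as over all genes. The lowest ratio was -0.22 and the highest 0.22.

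The genes that passed stood in 3 of the lists. Nt5c3b, a cytosolic nucleotidase that removes the phosphate of nucleoside monophosphates, fell by 0.22 (SD 0.05, limma adjusted p 0.0183), with ratios of -0.23, -0.19, -0.16 and -0.29, and its other tested probe was at -0.23. Among the 11 tested nucleotidases it was the only one to pass. Adssl1, a muscle-type adenylosuccinate synthetase on the way from IMP to AMP, fell by 0.22 (SD 0.15, adjusted p 0.0492), with array 2 near 0 (-0.01), as the only one of 13 tested interconversion genes. Uox, the urate oxidase that breaks down uric acid in mice, fell by 0.20 (SD 0.11, limma adjusted p 0.0453), 1 of 5 breakdown genes tested. Its probe was dim, with mean levels of 7.52 in wild type and 7.32 in knockout. The Uox ratio was -0.26 with an offset of 16 and -0.10 with 200, and passed with neither (limma adjusted p 0.0523 and 0.0625). Without the filter on dim probes, Uox did not pass either (0.0518). Nt5c3b and Adssl1 turned positive under median centring (0.10 and 0.15). Uox lost the call without replicates 1, 2 or 3, Nt5c3b without replicates 1, 2 or 3, and Adssl1 without replicates 1, 3 or 4.

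The other lists had 0 genes past the threshold in limma. De novo synthesis, the assembly of the purine ring on ribose phosphate, had 9 tested genes with ratios from -0.09 to 0.20 (3 with an unadjusted p under 0.05), and its largest was Pfas (0.20 ± 0.15, adjusted p 0.0737). Nucleoside kinases and other phosphorylases had 11 tested genes from -0.16 to 0.13 (5 with an unadjusted p under 0.05), with Uck1, a uridine-cytidine kinase, at -0.16 ± 0.12 (adjusted p 0.0913; 0.26 under median centring). The nucleoside transporters had 7 tested genes from -0.05 to 0.13 (1 with an unadjusted p under 0.05), with the equilibrative transporter Slc29a2 at 0.13 ± 0.12 (adjusted p 0.148). The adenosine receptors had 4 tested genes from -0.02 to 0.14 (1 with an unadjusted p under 0.05), with Adora2b at 0.14 ± 0.17 (adjusted p 0.201). The other probe of Adora2b was at 0.19 ± 0.06. With the mean of all its probes, Adora2b passed in limma (0.16, adjusted p 0.0468).

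**Figure D5:**
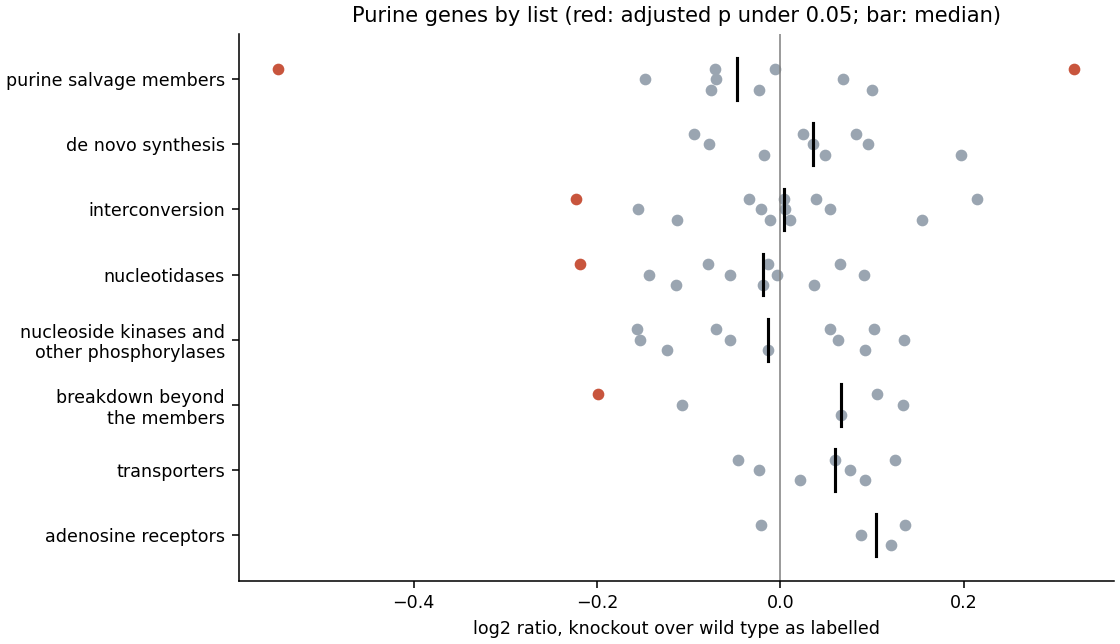
Mean log2 ratio of knockout over wild type (horizontal axis) of each tested gene in the purine salvage members and in 7 other lists. These lists hold purine genes and some genes of pyrimidine nucleosides. A bar marks each median, and red points passed adjusted p 0.05 in limma. In the main processing, the 60 other pathway genes run from -0.22 to 0.22, with Pnp2 (-0.55) and Pnp (0.32) outside that span. The size for Pnp2 depends on the offset, with a ratio of -0.21 at an offset of 200. Nothing is read from these positions, since the members were chosen with this contrast known.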

How the data were processed

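Cortical RNA (200 ng per sample) was hybridized to 4 dual-colour arrays on 1 slide, per the labels and file headers. The authors extracted raw intensity (median pixel signal) and local background with Agilent Feature Extraction. Its version is 11.0.1.1 in the deposited file headers, whereas the submitters' processing notes name 10.7.3.1. The file headers also give a log10 ratio of processed intensities, and the deposited table gives log2 ratios of the same.

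From the raw intensity, background was removed with limma's normexp (offset 50) and ratios were normalized by loess in R 4.3.3 with limma 3.58.1 and data.table (version 1.17.8). Control spots (1377) had weight 0, 802 outlier spots were left out, and spots of the same probe were averaged. The filter kept 27664 of 39429 probes, and 20764 of these had a symbol through RefSeq accessions (assembly GRCm38.p6; array annotation mm9). Each of 15759 genes was represented by its brightest kept probe. An intercept-only limma model was fitted to the 4 ratios, with Benjamini-Hochberg adjustment over all kept probes. Channel levels were taken after loess and Aquantile. The number of arrays limits the precision. The within-array ratio holds the replicate block, as each array pairs samples of 1 number. The fit was tested on simulated data.

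The text names all members with every probe, up to 3 called genes per pathway list (or the largest 1), the 3 tested neighbours on each side, the 3 genes nearest in ratios to Pnp and to Pnp2, and Ndrg2. The members and lists were chosen with earlier results of these data known. Alternatives covered background, signal, scaling, filters, outliers, probe choice, pairing and each replicate left out.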

Additional observations from a re-analysis of the deposited data

Results flagged for a closer look

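Among 33 sets of 4 array ratios examined (the tested probes of the members and the other named genes), 3 had an array that stood far from the others, by a gap larger than Dixon's 95% critical value; chance alone gives about 1 in 20 sets. For the brighter Adk probe, array 4 was at 0.14, above the other arrays. For the brighter Ampd2 probe, array 1 was at 0.0795, above the other arrays at -0.13 to -0.12. For Ndrg2, array 1 was at 0.11, below the other arrays at 0.37 to 0.40.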

How the results depend on the processing

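Of 10 members, 2 passed in the main processing. That count was 8 under median centring without loess, 4 with a normexp offset of 200 and 1 where a signal well above background was required in both channels, a setting that did not test Pnp2; with 1 replicate left out it was 1 to 2. Over all genes the count was 2357 (61% higher). It was 1329 with processed signals and with the deposited values, and 12971 under median centring (82.1% higher). Without the replicate block, in an unpaired fit of the channels, it was 664, and with 1 replicate left out it was 452 to 1544. Among the 60 genes of the other lists, the count of 3 became 51 under median centring, 1 with no filter on dim probes and 5 with the mean of all probes. It was 0 without the replicate block, 1 with an offset of 16, 7 with an offset of 200, and 0 to 3 with 1 replicate left out. Both offsets were chosen after seeing the data. Without the replicate block, Pnp still passed. Pnp2 passed too, which is no separate support, since the filter admitted it through the wild-type channel. The sign turned under median centring for Adssl1 (0.15), Nt5c3b (0.10), Uck1 (0.26), Osgep (0.26) and Pip4p1 (0.24), and for Xpo7 with the mean of all its probes (0.13). The cause of these changes was not tested. Signals near background limit what the Pnp2, Ada, Xdh, Ampd3 and Uox probes can show.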
